A study of Mus musculus with 4 samples.

Results

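Apoe encodes apolipoprotein E, the main carrier of cholesterol and phospholipid between cells of the brain. Astrocytes are its best known source in the healthy brain, and microglia, the resident macrophages of the brain, switch the gene on when they take up debris or gather at amyloid plaques. Microglia in that state also make the lysosomal protease inhibitor Cst7 and the integrin Itgax, while genes of the resting state such as the fractalkine receptor Cx3cr1 go down. Apoe lies on the minus strand of mouse chromosome 7 (GRCm39, chr7:19430034-19434947) and was 1 of the 397 genes of the targeted immune panel used here.

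The cells came from the right hemisphere, without cerebellum and olfactory bulb, of 2 Abi3-/- and 2 Abi3+/+ mice, male and 9 months old. All 4 mice carried 5XFAD, a set of mutant human transgenes expressed in neurons that drive amyloid deposition, and by the study's methods the experimental mice were heterozygous for an SJL variant of Trem2. The Abi3-/- mice lacked the Abi3 locus in every cell, and since Abi3 is not in the panel the genotypes rest on the labels. The comparison asks whether Apoe differs between cell classes, which genes go with it in microglia, and whether it differs between the genotypes.

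Each mouse gave 1 library. Of 21172 cells, 13820 had at least 40 genes with a read and at most the study's ceiling of reads, and these were used. The deepest kept cell held 59271 reads and the shallowest cell above the ceiling 59360. The kept cells of a library held between 61058416 and 102612276 reads, with medians of 19648 to 24283 reads and 76 to 81 genes per cell. The values are reads and not molecules, so all intervals cover counting error only. The smallest number of Apoe reads in a cell with any was 6 to 8 in the 4 libraries. Any pair of libraries shared 6 to 18 cell barcodes among the kept cells. Microglia were the kept cells with a read of the receptor Trem2 that did not reach the marker threshold of macrophages, T cells, neutrophils or B cells. Markers below a threshold were allowed, and at least 1 of 6 B cell genes was read in 73.3% to 76.8% of the microglia of a mouse. Of the microglia, 99.7% to 99.9% in each mouse also held the complement gene C1qa and 76.3% to 94.4% held Cx3cr1. Macrophages held at least 2 of Ccr2, Clec10a, F13a1 and Cd163. T cells held at least 2 of 6 T cell receptor and CD3 genes, and neutrophils at least 3 of 6 granulocyte genes, among them Mmp9, which was read in 100% of the neutrophils of each mouse. This gave 13036 microglia, 92 macrophages, 311 T cells and 116 neutrophils.

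Apoe was read in 36.0% to 71.3% of the microglia of a mouse, in 35.7% to 60.0% of the far fewer macrophages and in few T cells and neutrophils. Among microglia it was read in 71.3% of 2178 cells of Abi3-/- mouse 1 (exact 95% interval 69.4% to 73.2%), in 51.2% of 4219 cells of Abi3-/- mouse 2 (49.7% to 52.7%), in 36.5% of 3657 cells of Abi3+/+ mouse 1 (34.9% to 38.1%) and in 36.0% of 2982 cells of Abi3+/+ mouse 2 (34.3% to 37.8%). The mean over the mice was 48.8% ± 16.6 (SD, n = 4). Among T cells, a lymphocyte class not known to make apolipoprotein E, the shares in the same order of mice were 5.38% of 93 cells, 10.3% of 68, 7.04% of 71 and 5.06% of 79, with a mean of 6.94% ± 2.40 (SD, n = 4). Every mouse thus had a share in microglia far above that in its own T cells. The median depth of T cells, 15117 to 17450 reads, was below that of microglia, 19793 to 24681 reads, so these shares were not taken at equal depth. With each cell thinned to 12435 reads of genes other than Apoe, the shares were 36.5% to 71.9% in microglia and 5.00% to 10.6% in T cells.

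**Figure D1:**
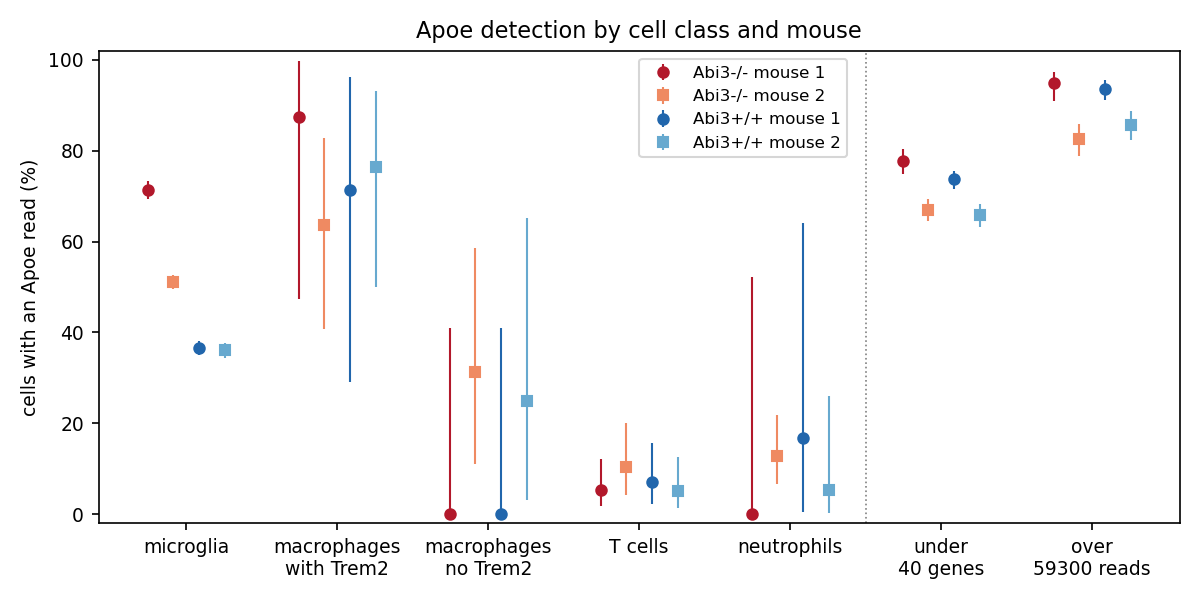
Share of cells with an Apoe read (%, vertical axis) in each class, 1 point per mouse with its exact 95% interval (counting error only), Abi3-/- mice in red and orange and Abi3+/+ mice in blue. Right of the dotted line are the cells left out of the comparisons. The Abi3-/- mice lie above the Abi3+/+ mice in microglia, macrophages split by Trem2, and T cells and neutrophils stay at or below 16.7%.

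Positive microglia also held more Apoe than positive T cells. The median positive microglia held 154, 98, 93 and 84 Apoe reads in Abi3-/- mice 1 and 2 and Abi3+/+ mice 1 and 2, and the median positive T cell held 13, 12, 15 and 33. Relative to all reads of the class, microglia had 84.3, 48.3, 43.2 and 26.2 Apoe reads per 10000 reads, and T cells had 0.671, 1.53, 2.35 and 1.55. The level in microglia was above that in T cells in all 4 mice. On reads summed per mouse and class, Apoe was higher in microglia than in T cells by 5.77 on the log2 scale (SE 1.28, edgeR quasi-likelihood test with the mouse as a block, adjusted p = 0.0035), in a comparison in which 53.7% of the 324 genes tested passed at an adjusted p under 0.05. T cells also held reads of 3 genes of microglia, C1qa in 6.45% to 17.6% of the cells of a mouse, C1qb in 2.53% to 14.1% and Cx3cr1 in 0% to 7.04%. The Apoe share was below that of C1qa in each mouse, below that of C1qb in 2 of the 4 mice and not below that of Cx3cr1 in any. The source of the Apoe reads in T cells was not tested.

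Neutrophils were few. Apoe was read in 0 of 5 cells in Abi3-/- mouse 1, a count that allows a share of up to 60.0% at a limit of 3 cells (exact 95% upper bound 52.2%), in 12.8% of 86 cells in Abi3-/- mouse 2, in 1 of 6 cells in Abi3+/+ mouse 1 and in 1 of 19 in Abi3+/+ mouse 2. Where it was read, the median was 28, 9 and 87 reads. Only Abi3-/- mouse 2 held enough neutrophils for its share to be read, and that share lay near the T cell level. Summed reads were higher in microglia than in neutrophils by 5.73 on the log2 scale (SE 1.30, edgeR with a mouse block, adjusted p = 0.00868), where 46.3% of all genes tested passed. The neutrophils of Abi3-/- mouse 1 held no Apoe read and those of the other mice held 281, 9 and 87, so the size of this fitted value rests on few reads. Without Abi3+/+ mouse 2 the adjusted p of this edgeR fit was 0.0499.

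Macrophages, the class of border and blood-derived phagocytes, had Apoe reads in 7 of 15 cells of Abi3-/- mouse 1 (46.7%), 50.0% of 38 cells of Abi3-/- mouse 2, 35.7% of 14 cells of Abi3+/+ mouse 1 and 60.0% of 25 cells of Abi3+/+ mouse 2, with a mean of 48.1% ± 10.0 (SD, n = 4). The median positive cell held 328, 66, 146 and 190 Apoe reads, above the microglia of the same mouse in 3 of the 4 mice. Their median depth was 33363 to 42862 reads, above that of microglia. The order of the mice was not that of microglia. The difference in summed reads between macrophages and microglia was -0.42 on the log2 scale (SE 1.03) and did not pass (edgeR with a mouse block, adjusted p = 0.828), where 21.9% of all genes tested passed. With at least 3 of the 4 markers required, the value was 0.55.

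The macrophage value depended on Trem2. Of the 54 macrophages with a Trem2 read, Apoe was read in 87.5%, 63.6%, 71.4% and 76.5% of those in Abi3-/- mice 1 and 2 and Abi3+/+ mice 1 and 2. Of the 38 without one, it was read in 0 of 7, 5 of 16, 0 of 7 and 2 of 8 cells. In each mouse the share was higher among the cells with Trem2. Pooled over the mice, the positive cells without Trem2 held a median of 22 Apoe reads against 190 in those with it. The median depths of all macrophages without and with Trem2, positive or not, were 45900 and 36787 reads. An alternative added after the data were seen restricted macrophages, T cells and neutrophils to cells without Trem2. The macrophage value in that edgeR fit was -7.44 and passed (adjusted p = 0.0174). That fitted value rests on few reads, since 2 of the 4 libraries held no Apoe read in these macrophages and the others held 178 and 60. The Trem2 read is also a marker of microglia, the class these macrophages are set against. Over all alternatives of the macrophage value, this one included, the adjusted p was 0.0174 (edgeR) to 0.993 (DESeq2). C1qa was also read in 23.7% to 56.0% of the macrophages of a mouse. Whether some of these are microglia and macrophages caught together was not tested.

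Within microglia the Apoe level was uneven. In positive cells the median was 60.6, 44.7, 41.5 and 31.4 Apoe reads per 10000 reads of the cell in Abi3-/- mice 1 and 2 and Abi3+/+ mice 1 and 2. The upper quartile was 118, 102, 115 and 78.0. The tenth of microglia with most Apoe held 55.6%, 64.0%, 79.4% and 73.9% of all Apoe reads of the microglia. The reads were thus gathered in fewer cells in the Abi3+/+ mice than in the Abi3-/- mice, in both mice of each. Cells with at least 500 Apoe reads made up 11.4%, 6.23%, 6.04% and 3.08% of microglia.

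**Figure D2:**
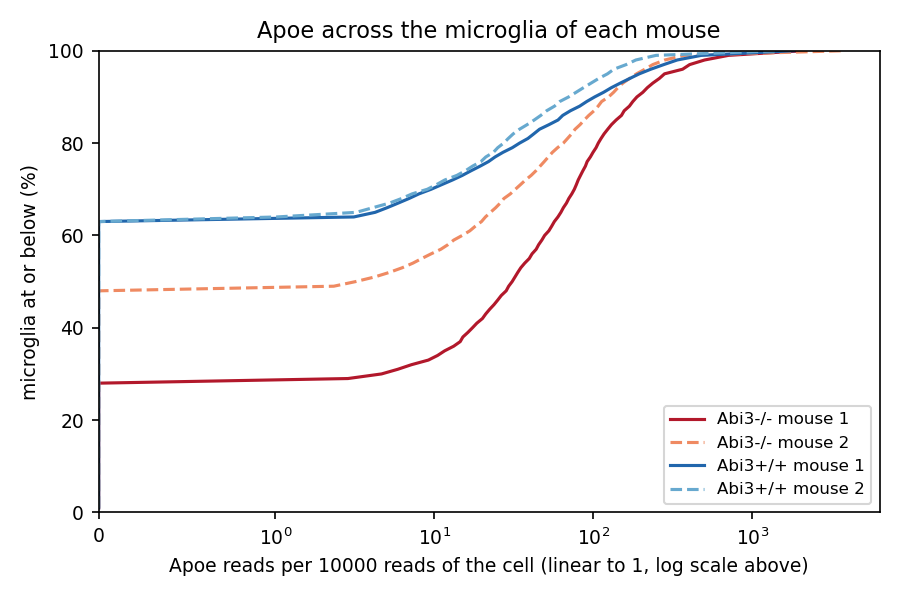
Cumulative share of the microglia of each mouse (%, vertical axis) at or below a given number of Apoe reads per 10000 reads of the cell (horizontal axis, linear to 1 and logarithmic above). The left end of each curve is the share without an Apoe read, lowest in Abi3-/- mouse 1 and highest in the Abi3+/+ mice, whose curves lie together there.

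Genes of the plaque-associated state went with Apoe. Across 2081 to 3616 microglia of each mouse, thinned to equal depth, the 10 genes with the highest Spearman correlation with Apoe, out of 169 genes read in at least 5% of microglia, were Lyz2, Cst7, Cd63, Lilrb4a, Ctsd, Itgax, Fth1, Anxa5, Il3ra and Cd52. The mean correlation was 0.51 for Lyz2, the macrophage lysozyme (0.41 to 0.56 in the 4 mice), and 0.49 for Cst7 (0.36 to 0.55). It was 0.38 for Cd63, a protein of lysosomes and exosomes, 0.36 for the inhibitory receptor Lilrb4a, 0.31 for the lysosomal protease Ctsd and 0.30 for Itgax. The cells of a mouse share a library, and these correlations describe the cells with no test. The median over the 169 genes was -0.04, with 43 genes positive and 104 negative in all 4 mice.

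Cst7 shows how far the genes went together. In cells with an Apoe read it was read in 47.1%, 66.7%, 48.9% and 53.8% of microglia of Abi3-/- mice 1 and 2 and Abi3+/+ mice 1 and 2, and in cells without one in 22.7%, 25.2%, 12.4% and 12.4%. The ranges over the mice did not overlap. Lilrb4a was read in 9.96% to 32.0% of cells with Apoe and in 1.79% to 4.54% of those without, and Itgax in 31.5% to 48.9% against 9.23% to 22.2%. Apoe reads were also found in many microglia in which no Cst7 read was detectable at this depth.

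The genes at the other end included Selplg, Tmem173, Egr1, Ifngr1, Itgam, Lyn, Cx3cr1, Jun and Il6ra. The mean correlation was -0.40 for Selplg, the P-selectin ligand that marks resting microglia (-0.45 to -0.32), and -0.35 for Tmem173, the DNA sensing adaptor STING. Egr1, an immediate early transcription factor, stood at -0.32 and Cx3cr1 at -0.29. These genes were still read in most cells of both kinds. Cx3cr1, for example, was read in 69.1% to 93.8% of microglia with Apoe and in 81.7% to 97.3% of those without, and was less frequent with Apoe in each mouse.

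On reads summed per mouse over cells with and without an Apoe read, at equal depth, 60 of 279 genes were higher (21.5% of those tested) and 53 lower (19.0%) in the cells with Apoe (edgeR with a mouse block, adjusted p under 0.05). Apoe, which made the split, was not among the genes tested. Without TMM normalization the counts were 49 higher and 98 lower, and the median over all genes moved from -0.03 to -0.23 on the log2 scale. The counts also rested on single mice. They fell to 11 and 25 without Abi3+/+ mouse 1, to 33 and 27 without Abi3+/+ mouse 2 and to 23 and 27 without Abi3-/- mouse 2. No gene called in one direction was called in the other in any of these fits.

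All 16 panel genes of a list for disease-associated microglia were higher in cells with Apoe, where 21.5% of all genes tested were. Their median was 1.02 on the log2 scale against -0.03 over all genes. Without Abi3+/+ mouse 1 only 11 panel genes were called higher, so the 16 did not all pass there. Of the 16, only Cst7, Spp1, Lilrb4a, Cd63 and Ccl6 passed in every alternative to the edgeR fit, and Ccl4 reached an adjusted p of 0.115. The list includes genes named in the study for these same mice, so its direction is not independent evidence. Cst7 was higher by 3.49 on the log2 scale (SE 0.37, edgeR adjusted p = 0.0051), Spp1, the secreted phosphoprotein osteopontin, by 3.22 (SE 0.40) and Lilrb4a by 2.86 (SE 0.37), each in 4 of 4 mice. Lgals3, the lectin galectin-3, was higher by 2.86, Itgax by 1.88, the growth factor Csf1 by 1.59 and Cd63 by 1.10. The smallest changes were in Cd9, a membrane tetraspanin, at 0.40 and Trem2 at 0.37. A Trem2 read was required of every microglia, so the Trem2 value compares only how many reads the cells held. Beside the list, Anxa5, a phosphatidylserine binding protein, was higher by 1.30 and Il3ra, a cytokine receptor chain, by 1.50.

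Genes of the resting surface fell by less. Of 9 genes, 8 were lower, where 19.0% of all genes tested were. The macrophage receptor Adgre1 did not pass (-0.13, edgeR adjusted p = 0.189), while all 9 were lower without TMM normalization. Of the 8, Maf, Fscn1 and Entpd1 did not pass in every alternative to the edgeR fit (highest adjusted p 0.0595, 0.0618 and 0.0512). The list median was -0.40 on the log2 scale. The difference was -0.60 for the transcription factor Maf, -0.41 for Cx3cr1 (SE 0.03, edgeR adjusted p = 0.00498) and -0.40 for Selplg, and each was lower in 4 of 4 mice. All 6 immediate early genes were lower too, with a list median of -0.47, led by Egr1 at -0.62 and Fosb at -0.49. Egr1, Jun and Junb passed in every alternative to the edgeR fit. Fosb, Ier3 and Dusp1 did not, with highest adjusted p values of 0.0595, 0.0755 and 0.0909. Immediate early genes also respond to tissue dissociation, and the part of dissociation in their order was not tested.

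Antigen presentation, interferon, lysosome and complement genes were mixed, and of their called genes only Cd63 passed in every alternative. Of 6 MHC class II genes, Cd74, the invariant chain, was higher by 2.10 (SE 0.62) and H2-Ab1 by 2.03 (SE 0.58), while H2-Aa at 2.51 (SE 1.06) and H2-Eb1 at 2.50 (SE 1.04) varied too much between mice to pass, and H2-DMa at -0.05 and H2-DMb2 at -0.37 did not pass, although both of the last were lower without TMM normalization. Of 6 interferon genes, Ifitm3 was higher by 1.46 and Irf7 by 0.86, and the other 4 did not pass, nor did Irf7 without TMM normalization. Of 7 lysosome and lipid genes, Cd63, Ctsd, the acid lipase Lipa and Lamp1 were higher, and the last of these, at 0.26, and Lipa, at 0.40, no longer passed without TMM normalization. Of 4 complement genes, C3 was higher by 1.94, whereas C1qa stood at 0.01, C1qb at -0.04 and the receptor C5ar1 at -0.17, and these 3 were lower without TMM normalization. None of 8 cell cycle genes passed in the edgeR fit with TMM normalization, with a median of -0.58, and 4 of them were lower without it.

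**Figure D3:**
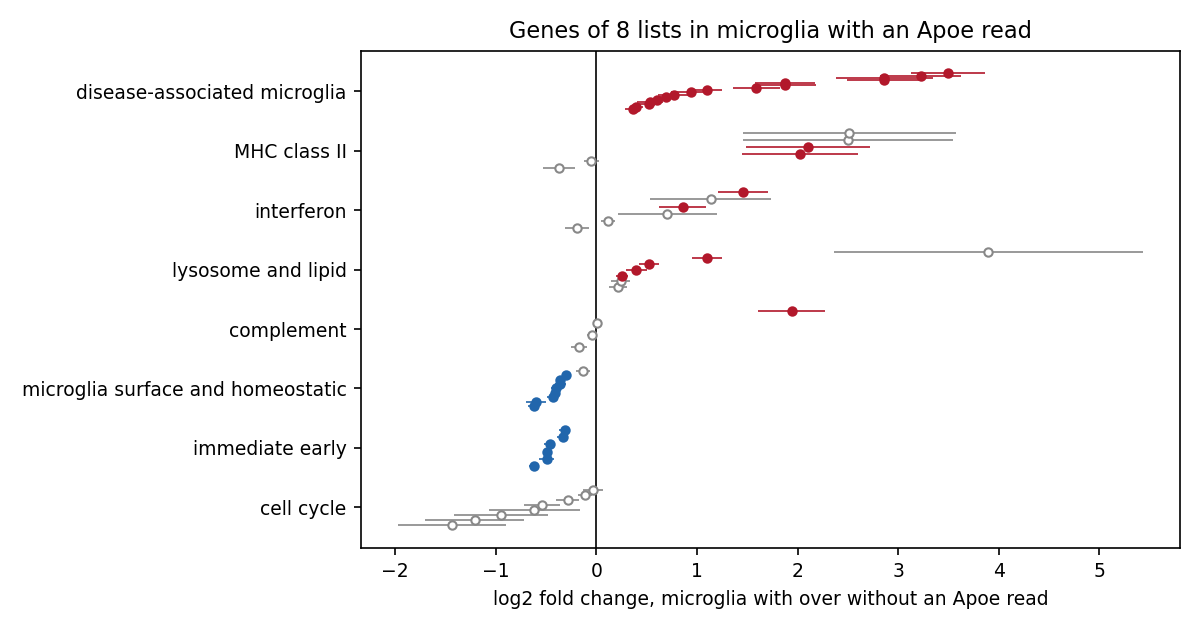
Log2 fold change (horizontal axis, bars are standard errors) of each gene of 8 lists in microglia with over those without an Apoe read, at equal depth, from reads summed per mouse (n = 4 mice). Red and blue points passed as higher and lower and open points did not. All 16 disease-associated genes lie right of 0 and all 6 immediate early genes left of it.

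Genes typical of other brain cells moved with Apoe in microglia. At equal depth, at least 1 of Mbp, a myelin gene, Thy1, a neuronal surface gene, and Il33, a cytokine of oligodendrocytes and astrocytes, was read in 24.2% to 25.9% of microglia with Apoe and in 16.1% to 19.5% of those without. Their summed level was 5.92 to 7.41 reads per 10000 with Apoe and 4.32 to 5.84 without, and none of the 3 was at 0 in either set. Il33 was higher by 2.86, Thy1 by 1.97 and Mbp by 0.29 in the edgeR fit, the last not without TMM normalization. These 3 genes were chosen after their values were seen. Without the microglia that held any of them, 54 genes were higher and 42 lower, and 47 and 42 of these were among the 60 and 53. The summed level of the 4 macrophage markers was 0.397 to 0.842 reads per 10000 with Apoe and 0.435 to 0.690 without, and those ranges overlapped. Of the 4 markers, 0 to 1 were at 0 with Apoe in a mouse and 2 to 3 without, and Clec10a was called higher with Apoe at 6.56 (SE 1.86, edgeR adjusted p = 0.0417). Cells with at least 2 of these 4 markers were not counted as microglia, so these values cover only cells with at most 1. F5, Thbd and Tgfb3, which mark another small class of the kept cells, summed to 0.529 to 3.34 reads per 10000 with Apoe and 0.0271 to 0.117 without, and F5 was higher by 4.86 and Tgfb3 by 7.36. These genes were read in few microglia, so their fitted values depend on the prior count, and the part of such cells in the comparison was not tested.

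Microglia with Apoe were also deeper, with median depths of 26577, 23137, 22907 and 26909 reads in the 4 mice against 21593, 17676, 18467 and 21311 without. Over 5 equal bins of microglia by depth, the share with Apoe was 24.9% to 58.5% in the shallowest bin and 65.1% to 84.8% in the deepest. The step was largest into the deepest bin in each mouse, from 38.7% to 72.9% in Abi3+/+ mouse 1 for example. The comparisons at equal depth above gave each cell the same number of reads of the other genes. Thinning did not lower the share with Apoe, at 36.5% to 71.9% against 36.0% to 71.3% before. The split by Apoe thus still rested on reads seen at the original depth of the cells. Whether deeper cells are larger cells or pairs of cells was not tested.

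Both Abi3-/- mice had Apoe in more microglia than both Abi3+/+ mice, and the Abi3-/- mice differed from each other by more than the second of them differed from the Abi3+/+ mice. The means were 61.3% ± 14.3 and 36.2% ± 0.327 (SD, n = 2 each), a difference of 25.0 percentage points (exact permutation test over mice, two-sided, p = 0.33, the smallest p that 2 mice against 2 allow). Without Abi3-/- mouse 1 the difference was 14.9 points and without Abi3-/- mouse 2 it was 35.1. The median reads per positive cell, 154 and 98 against 93 and 84, differed by 37.5 reads (exact permutation p = 0.33) by 9.5 without Abi3-/- mouse 1 and by 65.5 without Abi3-/- mouse 2. Without the cell filter it was 15.25 reads and the genotypes overlapped (exact permutation p = 1.0). At equal depth these medians were 73, 55, 52 and 38 reads.

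Summed over microglia, Apoe was higher in the Abi3-/- mice by 1.12 on the log2 scale (SE 0.40), with an adjusted p = 0.66 by edgeR's quasi-likelihood test, and 0.0% of 325 genes were called (0 genes, against 23 at an unadjusted p under 0.05, 9 by DESeq2 and 0 by limma). The Apoe value did not pass by any of the 3, of which limma took means over cells and not sums. In 20.0% of the genes tested both Abi3-/- mice lay above both Abi3+/+ mice, as Apoe did. Without Abi3-/- mouse 1 the value was 0.64, and with cells of any depth and gene number 0.73. In a bulk-like sum, fewer Apoe-bearing cells and less Apoe per cell cannot be told apart, and here both measures were higher in the Abi3-/- mice.

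The genotype comparison was repeated by the number of Cst7 and Itgax genes with a read. In cells with neither Cst7 nor Itgax, Apoe was read in 62.1% and 29.2% of the Abi3-/- cells and in 24.4% and 20.7% of the Abi3+/+ cells. With 1 of the 2 genes the shares were 75.2% and 58.0% against 52.0% and 43.5%. With both they were 89.9% and 84.5% against 85.1% and 85.7%, and the genotypes overlapped at shares near the ceiling, where little difference could show. The differences in means were 23.1, 18.8 and 1.79 percentage points (exact permutation p = 0.33, 0.33 and 1.0), and without Abi3-/- mouse 1 the first was 6.66 and the second 10.3. Without Abi3-/- mouse 2 the first was 39.5. The step from neither gene to both was 27.9 and 55.3 points with Abi3 deleted, against 60.7 and 65.1 points in Abi3+/+ mice (exact permutation p = 0.33). The reads per positive cell overlapped there as well, with medians of 404 and 205 Apoe reads against 350 and 215.

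**Figure D4:**
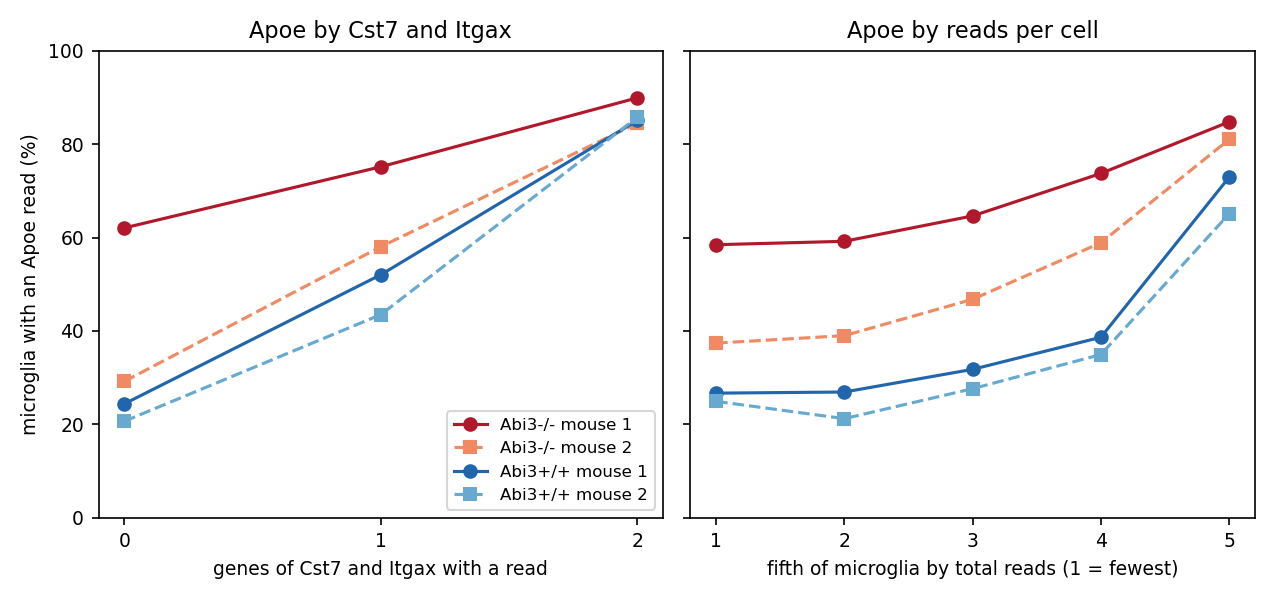
Share of microglia with an Apoe read (%, vertical axes) by the number of Cst7 and Itgax genes with a read (left) and by 5 equal bins of total reads per cell (right), 1 line per mouse. The lines meet between 84.5% and 89.9% where both genes are read, and the Abi3-/- lines lie above the Abi3+/+ lines in every bin of depth.

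Some parts of the makeup of the microglia did not overlap between the genotypes, and others did. Microglia without a Cx3cr1 read, at 5.60% and 11.2% in Abi3-/- mice against 6.86% and 23.7% in Abi3+/+ mice, overlapped. Those with at least 4 cell cycle genes overlapped too, at 0.413% and 1.11% against 0.875% and 0.905%. Those with at least 3 MHC class II genes did not, at 11.3% and 5.02% against 3.75% and 1.64%. Cells with neither Cst7 nor Itgax were 47.6% and 44.0% of Abi3-/- microglia, against 68.8% and 60.7% of Abi3+/+ microglia (exact permutation p = 0.33). With the 3 strata given the same weight in every mouse, the Apoe shares were 70.3%, 46.3%, 42.0% and 37.6%, and the difference in means was 18.5 points (exact permutation p = 0.33) in place of 25.0. Abi3-/- mouse 2 then lay nearer to the Abi3+/+ mice than to Abi3-/- mouse 1. Microglia with at least 5 of the 6 immediate early genes were 26.4% and 36.1% of the cells in the first genotype, against 47.6% and 39.5% in the second, which did not overlap (exact permutation p = 0.33). Among these cells Apoe was read in 70.3% and 42.5%, against 29.7% and 27.4%. Among the other microglia the shares were 71.7% and 56.1% against 42.7% and 41.6%. The part of such cells in the Apoe difference was not tested. In the edgeR fit by genotype none of the 6 genes passed. Fosb had an unadjusted p of 0.0174 (adjusted p = 0.598), and of the 6 DESeq2 called this gene alone and limma none. Junb stood at 0.37 on the log2 scale, in the direction of Apoe.

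Depth did not order the mice as Apoe did. Median depth in microglia was 24681 and 19920 reads with Abi3 deleted, against 19793 and 22759 reads in Abi3+/+ mice, which overlap. In each of the 5 bins of depth both Abi3-/- mice had a higher Apoe share than both Abi3+/+ mice, with differences in means of 13.9 to 29.5 points (exact permutation p = 0.33 each). The share of microglia with a read of Mbp, Thy1 or Il33 was 23.2% and 20.6% against 21.0% and 20.2%, and without those cells the difference in the Apoe share was 24.3 points. The heme gene Alas2 was read in 0.184% and 0.119% of microglia against 0.0273% and 0.0671%. Its summed reads were higher in the Abi3-/- mice by 5.26 on the log2 scale (edgeR unadjusted p = 0.00482, adjusted p = 0.411). The part of cells with Alas2 in the Apoe difference was not tested.

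In macrophages the genotypes overlapped. The shares of 46.7% and 50.0% against 35.7% and 60.0% gave a difference in means of 0.476 percentage points (exact permutation p = 1.0), with 14 to 38 cells a mouse. It was -11.7 points without Abi3+/+ mouse 1, 12.6 without Abi3+/+ mouse 2 and -1.19 without Abi3-/- mouse 2, and with at least 3 markers required the genotypes no longer overlapped and it was 37.9 points (exact permutation p = 0.33), on 3 to 16 cells a mouse. In T cells the genotypes overlapped too, and the difference was 1.78 points (exact permutation p = 0.667). B cells, which held at least 2 of 6 B cell genes, were few. In them Apoe was read in 5 of 9 and 9 of 29 Abi3-/- cells and in 0 of 3 and 7 of 38 Abi3+/+ cells. Ighm, 1 of the 6 genes, was also read in 75.2% of microglia as the mean over mice. Whether some of these B cells are microglia was not tested. The count of 0 of 3 allows any share at a limit of 3 cells (exact 95% upper bound 70.8%), so the order of the genotypes in B cells cannot be read. With 2 mice against 2 the exact permutation test cannot pass at any number of cells, so whether the genotypes differ in macrophages was not decided.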

How the data were processed

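The authors ran the BD Rhapsody Targeted Analysis Pipeline at default settings and deposited, for each cell, the count of reads of every panel gene that remained after DBEC, an error correction that works on the distribution of reads, on genome build mm10 by the submitters' processing notes. The pipeline version is not given in the sources used here. The depth of each library was 87117727 to 150756771 reads over all cells. The study's methods exclude cells by unique reads, which was taken here as genes with a read. Doublets were limited only by the ceiling on reads and by leaving out cells with markers of several classes.

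Sums of reads over the cells of a mouse went into edgeR 4.0.16 (filterByExpr, TMM, quasi-likelihood, Benjamini-Hochberg) in R 4.3.3, with DESeq2 1.42.0 and limma 3.58.1 as alternatives. Shares were compared by exact permutation over mice (scipy 1.17.1), with n the mice and not the cells. Likeness and the comparison of microglia with and without Apoe used cells thinned to 12435 non-Apoe reads, the 10% quantile in microglia, which left out 97, 603, 425 and 179 cells of Abi3-/- mice 1 and 2 and Abi3+/+ mice 1 and 2. Named genes were Apoe, the 10 highest and 10 lowest by mean Spearman correlation, and list members, a few of which are not reported here. The gene, the lists and the rules were chosen with earlier results of these data known.

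On simulated data with 4-fold changes in 162 of 325 genes, the genotype test called 100% at a dispersion of 0.01 and 0.617% at the observed 0.604. The class test, with 162 of 324 genes changed, called 99.4% and, at 1.38, 0%. The test by Apoe, with 139 of 279 genes changed, called 100% and, at 0.234, 86.3%.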

Additional observations from a re-analysis of the deposited data

Results flagged for a closer look

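Apoe was frequent in the cells that the comparisons left out, and these values come with no test of their source. Among cells with fewer than 40 genes, it was read in 77.7% of 870 cells of Abi3-/- mouse 1, 66.9% of 1502 of Abi3-/- mouse 2, 73.7% of 1917 of Abi3+/+ mouse 1 and 65.8% of 1385 of Abi3+/+ mouse 2, at median depths of only 2358 to 2500 reads. Their level was 443, 177, 321 and 184 Apoe reads per 10000 reads, above that of microglia in each mouse. Thy1 was read in 42.2% to 60.6% of these cells, Il33 in 19.0% to 25.6% and Trem2 in 20.0% to 22.7%. The genotypes overlapped, with a difference in means of 2.59 percentage points (exact permutation p = 0.67).

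Among cells above the ceiling of reads, the share was 94.9%, 82.5%, 93.7% and 85.7% in the same order of mice, and the genotypes overlapped as well. The microglia compared above held 48.6%, 54.5%, 32.1% and 34.8% of all Apoe reads of their libraries. Among the 159 kept cells with no Trem2 and too few markers for another class, the share was 52.9%, 69.8%, 64.3% and 80.9%, above that of microglia in 3 of the 4 mice.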

How the results depend on the processing

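Shares and medians compared between 2 mice and 2 cannot pass a threshold, so their alternatives bear on direction and size alone. The genotype difference in summed microglial reads stayed positive and not called, from 0.64 to 1.58 on the log2 scale, and with a replicate block it was 1.12 (edgeR adjusted p = 0.291). Equal replicate numbers did not pair the mice (correlation of deviations 0.0951 over 325 genes). The difference in microglial share stayed between 14.9 and 35.1 points. In cells with both Cst7 and Itgax the difference turned to -0.535 points without the cell filter, and ran from -0.93 to 4.50 with each mouse left out. In macrophages it turned to -1.89 without the cell filter and ran from -11.7 to 12.6 with each mouse left out. The macrophage value over microglia was 0.55 with 3 markers and -1.56 without the cell filter, against -0.42. Without Trem2 it was -7.44, the only alternative in which it passed. Genes higher with Apoe numbered 25 without the mouse block and 11 to 66 with each mouse left out, against 60. Genes lower numbered 7 without the mouse block, 98 without TMM and 25 to 63 with each mouse left out, against 53. The cause of these moves was not tested. With 14 to 38 macrophages and 5 to 86 neutrophils a mouse, counting error is large in those classes.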
